A study of Mus musculus with 160 samples.

Results

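The interferon response genes described here are 34 mouse genes out of 22866 gene names in a table of expression values. They were chosen by name as genes that interferons induce, with earlier results of these data known. A table row counted for a gene when its name, or 1 of the names joined on the row, matched the symbol, and rows sharing a name were summed. A row was found for 33 of the 34 genes. Ifi27 had no row under that name. For 3 genes the row joins several symbols, so its value cannot be given to 1 of them: Iigp1 shares a row with F830016B08Rik and Gm4951, Ifi203 with Mndal, and Igtp with Irgm2. The values came from 160 single stromal cells of C57BL/6J mouse bone marrow, 78 from Old mice (24 months) and 82 from Young mice (9 weeks). These ages are those of the labels, and the protocol text gives a slightly different age for the Young mice. All had been sorted as CD45-Ter119-CD31-LepR+CD140a+ cells, that is, cells lacking these marks of blood, erythroid and vessel-lining cells and carrying the receptors for leptin and for platelet-derived growth factor (alpha chain). Single cells were captured on microfluidic chips in separate wells for each age, and no treatment is given in the labels.

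Cells answer type I interferons through a receptor that activates Jak kinases, which phosphorylate transcription factors such as Stat2. With Irf9, Stat2 is part of the complex ISGF3, which binds the interferon-stimulated response element (ISRE) in the promoters of antiviral genes. Type II interferon acts through a different receptor and the gamma-activated site (GAS) in promoters, and raises Irf1 and many GTPases that attack intracellular pathogens. Many of these genes are also read at a low level without added interferon, and marrow stroma is the niche in which blood stem cells meet such signals.

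Expression was given as FPKM, fragments per kilobase of transcript, scaled to an equal number of mapped fragments in each cell. A gene was called listed in a cell at 1 FPKM or more, and measured when at least 5% of the 160 cells listed it, which 5677 names did. An exact 0 can be a failed estimate, since Gapdh, which nearly all cells use, was at exactly 0 in 91 of 160 cells and Actb in 0. A missing gene is therefore described as not listed, not as not expressed. The labels tie no cell to an animal. Each age therefore counts as 1 sample, no test between ages was made, and the intervals given are exact (Clopper-Pearson) 95% intervals for counting error only.

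Depth differed widely between cells of the same age. Because the values of single-transcript genes lie on steps of whole fragments, the number of fragments per cell could be estimated. The estimate had a median of 28068139 fragments in Old cells (2376 to 83779233) and 36747538 in Young cells (4323 to 120156631). It was under 1000000 in 20 Old cells (25.6%, interval 16.4 to 36.8) and in 22 Young cells (26.8%, 17.6 to 37.8), called shallow below. In a cell of 1000000 fragments, 1 fragment per kilobase of transcript already gives 1 FPKM. Old cells listed a median of 1160 named genes (193 to 2779) and Young cells 1114.5 (129 to 2129). The shallow cells listed fewer, with medians of 402 genes in Old and 539 in Young. The labelled cell type was checked on its markers: Cxcl12, a chemokine that keeps blood stem cells in the marrow, was listed in 77 Old and 82 Young cells, Lepr in 71 Old and 78 Young, and Pdgfra (CD140a) in only 30 Old and 28 Young. Ptprc (CD45) and Pecam1 (CD31) were listed in 0 cells, and no cell listed 3 or more markers of leukocytes, macrophages, endothelial, erythroid, megakaryocyte or pericyte cells. Of 6 leukocyte markers only Fcer1g was listed, in 9 Old and 2 Young cells. The ages also differed in sex-linked RNA: Xist was listed in 54 Old and 0 Young cells and a Y-linked gene in 0 Old and 34 Young cells. Age, sex-linked RNA and the capture cannot be told apart.

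Promoters are shown for 7 of these genes because the results below turn on these genes: Isg15 and Ifit3 are classical ISRE genes that few cells listed, Ifitm3 and Ifitm2 were listed in most cells, Gbp2 and Sp100 were among the genes with the largest difference between the ages, and Irf1 is the type II target. Each runs 5′ to 3′ on the gene's strand from 250 bases before to 50 bases after the annotated start, from RefSeq on build GRCm38.p6. Capitals mark the ISRE core, here GAAA, any 2 bases and GAAA again, sought on both strands and merged where matches overlap, and in Irf1 the GAS core TTCNNNGAA, which reads alike on both strands.
Isg15, chr4:156200769-156201068, minus strand: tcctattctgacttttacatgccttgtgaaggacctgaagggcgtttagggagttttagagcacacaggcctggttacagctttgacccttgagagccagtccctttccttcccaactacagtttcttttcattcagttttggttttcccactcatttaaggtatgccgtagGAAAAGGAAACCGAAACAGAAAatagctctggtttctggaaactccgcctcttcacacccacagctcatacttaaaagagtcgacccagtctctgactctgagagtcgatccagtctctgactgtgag
Ifit3, chr19:34583279-34583578, plus strand: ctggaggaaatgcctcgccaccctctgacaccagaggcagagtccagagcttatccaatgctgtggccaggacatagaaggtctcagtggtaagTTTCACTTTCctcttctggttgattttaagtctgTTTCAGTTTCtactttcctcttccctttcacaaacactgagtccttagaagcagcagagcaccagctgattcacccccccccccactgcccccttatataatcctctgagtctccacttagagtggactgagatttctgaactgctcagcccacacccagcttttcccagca
Ifitm3, chr7:141010695-141010994, minus strand: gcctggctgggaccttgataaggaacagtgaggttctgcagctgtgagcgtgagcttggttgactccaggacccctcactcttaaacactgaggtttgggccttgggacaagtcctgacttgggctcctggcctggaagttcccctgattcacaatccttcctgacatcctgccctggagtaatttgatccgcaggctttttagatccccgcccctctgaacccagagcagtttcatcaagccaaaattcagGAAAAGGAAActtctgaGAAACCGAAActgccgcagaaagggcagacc
Ifitm2, chr7:140955912-140956211, minus strand: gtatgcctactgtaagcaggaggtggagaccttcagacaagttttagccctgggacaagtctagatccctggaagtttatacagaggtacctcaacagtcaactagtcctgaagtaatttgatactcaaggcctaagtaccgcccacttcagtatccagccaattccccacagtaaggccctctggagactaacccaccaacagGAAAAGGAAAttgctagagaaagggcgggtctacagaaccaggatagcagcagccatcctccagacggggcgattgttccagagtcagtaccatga
Gbp2, chr3:142620413-142620712, plus strand: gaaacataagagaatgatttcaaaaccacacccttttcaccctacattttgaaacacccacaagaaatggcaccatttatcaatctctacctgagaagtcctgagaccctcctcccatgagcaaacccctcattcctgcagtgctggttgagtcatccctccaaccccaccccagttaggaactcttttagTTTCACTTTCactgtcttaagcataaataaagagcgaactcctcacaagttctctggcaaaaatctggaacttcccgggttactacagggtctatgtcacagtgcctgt
Irf1, chr11:53769764-53770063, plus strand: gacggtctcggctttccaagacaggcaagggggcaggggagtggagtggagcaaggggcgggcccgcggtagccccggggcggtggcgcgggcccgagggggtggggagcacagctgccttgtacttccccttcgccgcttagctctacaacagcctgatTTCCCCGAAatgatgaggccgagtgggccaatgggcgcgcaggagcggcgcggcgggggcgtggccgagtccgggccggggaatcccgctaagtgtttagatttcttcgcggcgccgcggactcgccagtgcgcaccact
Sp100, chr1:85649738-85650037, plus strand: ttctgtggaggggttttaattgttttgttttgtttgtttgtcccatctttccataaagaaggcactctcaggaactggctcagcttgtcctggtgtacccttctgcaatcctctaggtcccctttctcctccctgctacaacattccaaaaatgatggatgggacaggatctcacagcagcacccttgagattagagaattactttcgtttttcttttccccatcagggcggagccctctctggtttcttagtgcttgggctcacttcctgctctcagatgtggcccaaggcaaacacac

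The Isg15 promoter held 3 overlapping ISRE cores, the first beginning 78 bases before the start, and the Ifit3 promoter held 2. Ifitm3 held 2 just behind its start and Ifitm2 held 1, 46 bases before it. Ifitm3 also held a GAS core 13 bases behind its start, which is not marked above. Irf1 has another annotated start, with the window chr11:53770223-53770522, which held neither core and is not shown. The RefSeq table had promoters for 28 of the 34 genes, of which 17 held the ISRE core, against 3.99% of all 27025 genes in the table. A GAS core was found for 9 of the 28, against 9.55% of all genes. The ISRE core was found for 12 of the 20 measured genes with a promoter and for 5 of the 8 that were not measured. No ISRE core was found in these windows for Sp100, Xaf1, Irf1, Irf7, Irf9, Ifitm1, Ifit2, Ifi35, Ifi44, Oasl2 or Trim25, which says only that these letters are not there. A match is a description of the letters and not a shown site of binding.

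Only a few interferon response genes were seen in most cells, and the antiviral genes best known from infected cells were rare. Each of the 33 genes with a row was listed in at least 1 cell, 24 were measured, and 9 were listed in under 5% of cells. Ifitm3, Ifitm2 and the row of Iigp1 were listed in most cells of both ages, Irf1 in a minority, and the other 20 measured genes in 5 to 25% of cells. Between the ages 1 gene stood apart: Sp100 was listed in 27 of 78 Old cells and in 1 of 82 Young cells.

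**Figure D1:**
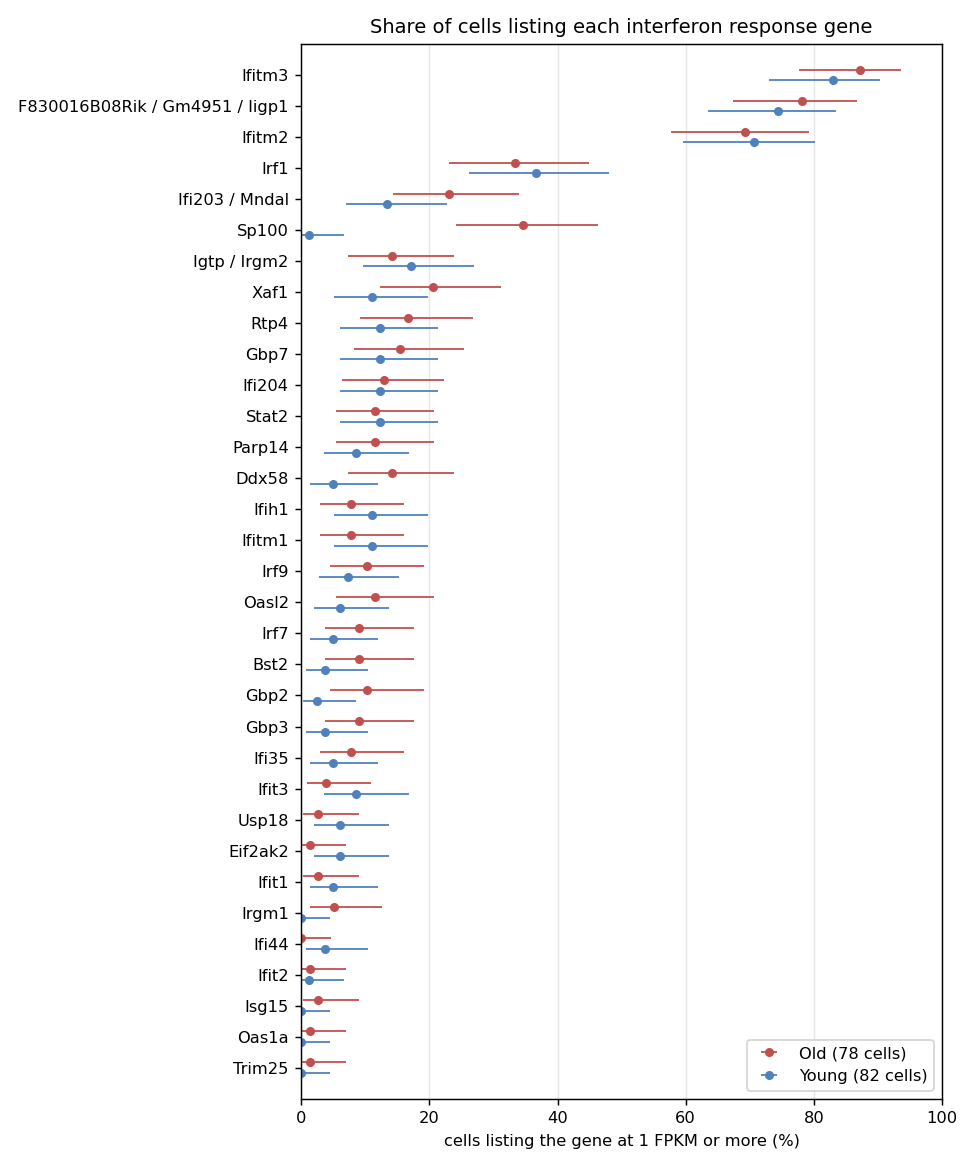
Share of cells (%, horizontal axis) listing each of the 33 interferon response genes with a row at 1 FPKM or more. Points are Old cells (red, upper of each pair, n = 78) and Young cells (blue, lower, n = 82), and bars are exact 95% intervals for counting error. The intervals of the ages overlap for every gene but Sp100.

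The membrane proteins of the Ifitm family, which block the entry of viruses, were the most widely listed. Ifitm3 was listed by 68 of 78 Old cells (87.2%, interval 77.7 to 93.7) and by 68 of 82 Young cells (82.9%, 73.02 to 90.3). Its level over all cells ran from 0 to 77130.5 FPKM in Old with a median of 343, and from 0 to 1872 FPKM in Young with a median of 229. The ranges overlapped over nearly all cells of both ages. The mean of log2(FPKM + 1) was 0.96 higher in Old, while the share of cells of 1000000 fragments or more that listed Ifitm3 was 2.01 points lower in Old. Ifitm2 was listed in 54 Old cells (69.2%) and 58 Young cells (70.7%), with median levels of 103 FPKM in Old and 116 FPKM in Young. Ifitm1 was rarer, in 6 Old and 9 Young cells. Bst2 (tetherin), which holds budding viruses at the cell surface, was listed in 7 Old and 3 Young cells. Ifitm genes are similar in sequence, and how reads shared between them were divided is not given in the sources used here.

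Among the GTPases, which damage the membranes around intracellular pathogens, 1 row was wide and the others were rare. The row of Iigp1, F830016B08Rik and Gm4951 was listed in 61 Old cells (78.2%, interval 67.4 to 86.8) and 61 Young cells (74.4%, 63.6 to 83.4). Its level ran from 0 to 499.8 FPKM in Old with a median of 22.8, and from 0 to 671 FPKM in Young with a median of 28.5. No single cell dominated it, the highest holding 5.89% of the summed FPKM. Igtp/Irgm2 was listed in 11 Old and 14 Young cells and Gbp7 in 12 Old and 10 Young. Gbp2 was listed in 8 Old cells (10.3%, 4.53 to 19.2) and 2 Young cells (2.44%, 0.30 to 8.53), and Gbp3 in 7 Old and 3 Young. These intervals overlap. Irgm1 was listed by 4 Old cells and by 0 of 82 Young cells. A count of 0 in 82 cells leaves room for a share of 3.66%, the share that 3 cells make, and its exact interval reaches 4.40%. The Gbp genes are close copies in 1 cluster, so their rows may share reads.

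Of the transcription factors, Irf1 was the most widely listed. Irf1, which is made quickly after type II interferon and other stimuli, was listed in 26 Old cells (33.3%, interval 23.1 to 44.9) and 30 Young cells (36.6%, 26.2 to 47.95). Cells that listed it had median levels of 13.2 FPKM in Old and 25.0 FPKM in Young. The partners of ISGF3 were rarer: Stat2 was listed in 9 Old and 10 Young cells, and Irf9 in 8 Old and 6 Young. Irf7, which drives the making of type I interferon itself, was listed in 7 Old and 4 Young cells. Of these 4 factors, 2 had a higher and 2 a lower share in Old.

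The sensors of viral RNA were listed in small minorities. Ddx58 (RIG-I), which senses uncapped RNA ends, was listed in 11 Old cells (14.1%, interval 7.26 to 23.8) and 4 Young cells (4.88%, 1.34 to 12.02). Ifih1 (MDA5), which senses long double-stranded RNA, ran the other way, in 6 Old and 9 Young cells. Oasl2, of the 2-5A synthetase family, was listed in 9 Old and 5 Young cells, and Oas1a, a synthetase that turns on RNase L, in 1 Old and 0 Young. Eif2ak2 (PKR), the kinase that stops translation, was listed in 1 Old and 5 Young cells, and Trim25, the ubiquitin ligase of RIG-I, in 1 Old and 0 Young.

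The tetratricopeptide and ubiquitin-like effectors, the best known products of ISGF3, were rare in both ages. None was listed in more than 3.85% of Old or 8.54% of Young cells. Isg15, the ubiquitin-like protein joined to other proteins during the response, was listed by 2 Old cells and by 0 of 82 Young cells. Its highest level in any cell was 5.92 FPKM. Ifit1, which binds viral RNA ends, was listed in 2 Old and 4 Young cells, its relative Ifit2 in 1 Old and 1 Young, and Ifit3 in 3 Old and 7 Young. Only 1 Old cell listed both Ifit1 and Ifit3, and 0 Young cells did. Usp18, which takes Isg15 off proteins and dampens the type I receptor, was listed in 2 Old and 5 Young cells.

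The nuclear and DNA-binding members differed by 0.63 points (Ifi204) to 33.4 points (Sp100) in share, Old minus Young, where 49.2% of all measured names lay higher in Old. The row of Ifi203 and Mndal, of the Pyhin family that binds DNA, was listed in 18 Old cells (23.1%, interval 14.3 to 33.997) and 11 Young cells (13.4%, 6.89 to 22.7). In cells of 1000000 fragments or more the difference was 16.03 points, with 18 Old and 9 Young cells listing it. Ifi204, of the same family, was listed in 10 Old and 10 Young cells, and its difference was -12.2 points in cells within the quartiles of the number of genes. Parp14, an ADP-ribosyltransferase, was listed in 9 Old and 7 Young. Among the other induced genes Xaf1, which binds an inhibitor of cell death, was listed in 16 Old cells (20.5%, 12.2 to 31.2) and 9 Young cells (10.98%, 5.14 to 19.8), and Rtp4, a chaperone of membrane receptors, in 13 Old and 10 Young. Ifi35 was listed in 6 Old and 4 Young cells and Ifi44 in 0 Old and 3 Young cells. A count of 0 in 78 cells leaves room for a share of 3.85%, the share that 3 cells make, and its exact interval reaches 4.62%.

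Sp100, a component of the nuclear bodies built on Pml that restrict DNA viruses, gave the only difference of 10 points or more among the 24 measured genes. It was listed in 27 Old cells (34.6%, interval 24.2 to 46.2) and 1 Young cell (1.22%, 0.03 to 6.61). Its level ran from 0 to 308 FPKM in Old with a median of 26.4 FPKM in the 27 cells that listed it, and the 1 Young cell had 64.1 FPKM. Counting any value above 0, 39 Old and 3 Young cells held it. Of 5677 measured names, 6 had a larger difference towards Old. The difference was as large without the shallow cells: among cells of 1000000 fragments or more, 22 of 58 Old and 1 of 60 Young listed Sp100, a difference of 36.3 points. The highest cell, at 308 FPKM, had an estimated 4504 fragments, where 1 fragment per kilobase is 222 FPKM.

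Old cells with and without Sp100 listed the same median number of other interferon response genes. The 27 Old cells that listed it listed a median of 5 other members (quartiles 3 and 7), and the 51 Old cells that did not listed 5 (3 and 6). The 27 cells listed a median of 1282 named genes against 984 in the other 51. Xist was listed in 22 of the 27 (81.5%) and in 32 of the 51 (62.7%). Mouse Sp100 has relatives and partial copies on the same chromosome, so the rows of the family were read too, chosen after the Sp100 values were seen. Sp110 was listed in 10 Old and 7 Young cells and Sp140 in 9 Old and 7 Young. Gm7609, a predicted relative, was listed in 9 Old and 1 Young cell. How much of the Sp100 value comes from reads shared with such copies, and whether the sex-linked or capture difference plays a part, was not tested.

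Over the measured genes as a whole, small differences leaned towards Old. A higher share in Old was found for 17 of 24, where 49.2% of all measured names lay higher, and a lower share for 7, where 50.7% lay lower. A difference of 10 points or more towards Old was found for 1 (5.09% of all measured names) and towards Young for 0 (7.52%). The median difference was 3.50 points, beside -0.34 over all measured names, and the median difference of mean log2(FPKM + 1) was 0.10, beside -0.01. Each age is 1 sample and the genes were read in the same cells, so this count has no replicate check. The list was also chosen with earlier results of these data known. With listing set at 10 FPKM, 17 genes were measured, 11 of them higher in Old and 6 lower. At any FPKM above 0 there were 29, with 18 higher and 11 lower. The shares over all names were not computed at either of these thresholds. In cells of 1000000 fragments or more, 17 were higher (50.5% of all) and 7 lower (49.3%), and 2 were at least 10 points higher (7.7% of all), Sp100 and the row of Ifi203. None was 10 points lower (8.49%), and the median was 2.96 points, beside 0.17 for all. The lowest differences were those of Ifit3 (-4.69 points), Ifih1 and Ifitm1 (both -3.28), Irf1 (-3.25) and the row of Igtp (-2.97).

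**Figure D2:**
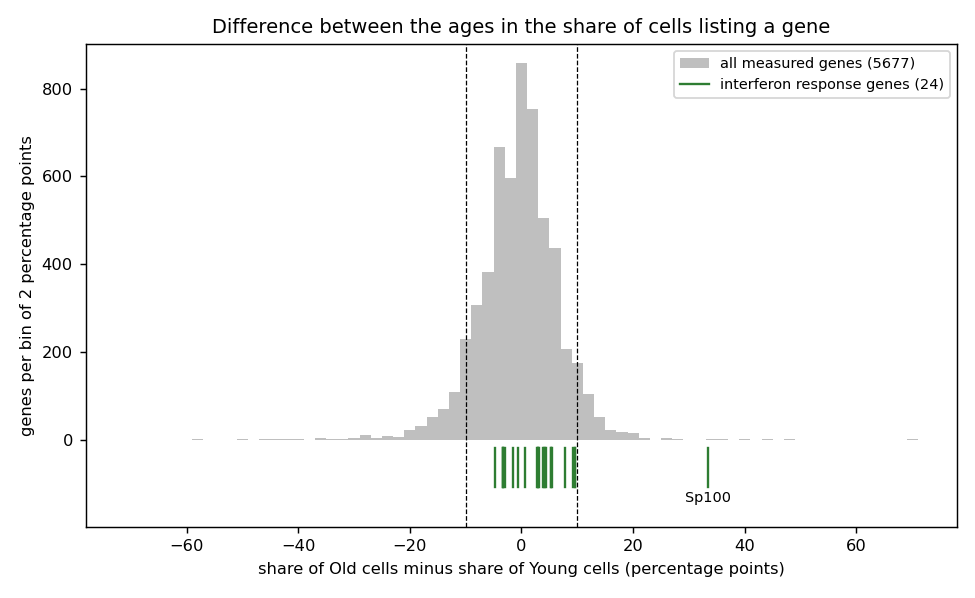
Histogram of the difference in share of cells listing a gene, Old minus Young in percentage points, over 5677 measured names (grey, bins of 2 points). Green ticks under the axis are the 24 measured interferon response genes and dashed lines stand at 10 points in either direction. All ticks but that of Sp100 (33.4 points) lie between the lines.

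Single cells set the mean level of several genes. For 5 of the 24 measured genes, 1 cell out of 160 supplied more than 50% of the summed FPKM, as it did for 16.1% of all measured names. Ifit3 had 149148 FPKM in Old cell 44, which is 99.8% of its sum, and the next cell, Young cell 49, had 104.3 FPKM. Its mean was 1913 FPKM in Old and 2.27 FPKM in Young, and 0.55 FPKM in Old without cell 44. Rtp4 had 365943 FPKM in Old cell 34, or 99.5% of its sum, before 379 FPKM in Young cell 62. Its mean was 4701 FPKM in Old and 11.98 FPKM in Young, and 9.33 FPKM in Old without cell 34. The mean of either gene is thus higher in Old with that cell and lower without it.

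The other dominated genes were Irf1, Ifitm3 and Ifi35. Irf1 had 3873 FPKM in Young cell 45, or 66.4%, and its means were 9.98 FPKM in Old and 61.6 FPKM in Young, or 14.5 FPKM in Young without that cell. Ifitm3 had 77130.5 FPKM in Old cell 46, or 52.3%, and its means were 1529 FPKM in Old and 344 FPKM in Young, or 547 FPKM in Old without it. Here the direction was the same with and without the cell. Ifi35 had 159 FPKM in Old cell 66, or 52.5%, in a gene listed by 10 cells. Among the 20 members listed in 5 to 25% of cells, 3 were dominated by 1 cell, beside 16.5% of the 4628 names in that range. The median share of the highest cell was 29.7% for the members and 28.7% for all measured names, so the members as a group lay close to the rest of the table.

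The most extreme values came from shallow cells. Old cell 44 had an estimated 13518 fragments, Old cell 34 had 31501, Old cell 46 had 33747 and Young cell 45 had 248228. How many fragments lie behind these values cannot be read from them, since the effective length used in the scaling is not known. Shallow cells also had large sums of FPKM, with a median of 329033 in 20 Old and 2541872 in 22 Young cells, against 135867 in the other 58 Old and 120936 in the other 60 Young cells. Ifit3 made up 0.549% of the summed FPKM of Old cell 44, and Rtp4 6.87% of that of Old cell 34. The highest cells of other genes were shallower still: Oasl2 had 113 FPKM in Old cell 62 (2998 fragments), and Gbp2 had 142 FPKM in Old cell 64 (3093 fragments). The highest cell was shallow for 9 of 24 genes, where 22.2% of all measured names had a shallow highest cell. Without the shallow cells, 1 cell held over 50% for 2 of 24 genes, Ifi35 and Gbp3, where 13.9% of all names were so held.

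**Figure D3:**
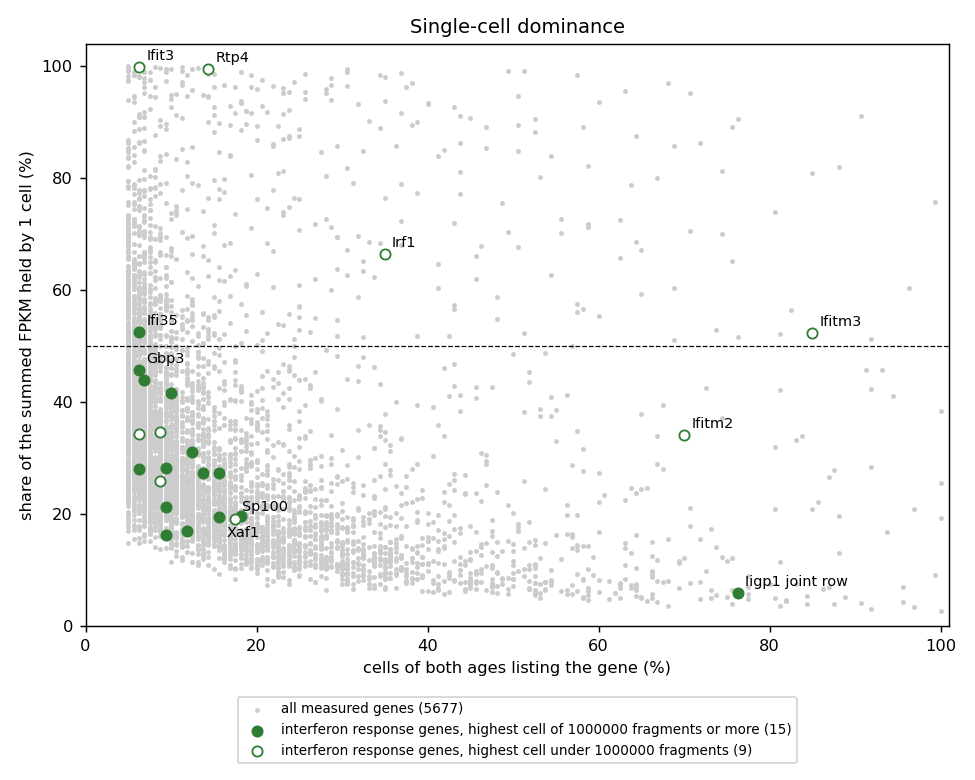
Share of each gene's summed FPKM held by its highest cell (%, vertical axis) against the share of all 160 cells listing it (%, horizontal axis). Grey points are 5677 measured names, green circles the 24 measured interferon response genes, open where the highest cell had under 1000000 estimated fragments (9 genes). Ifit3, Rtp4, Irf1, Ifi35 and Ifitm3 lie above the dashed line at 50%, and all but Ifi35 are open.

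A small number of cells listed many of the genes together. Old cells listed a median of 5 of the 34 genes (quartiles 3 and 7, range 1 to 13) and Young cells 4 (3 and 6, range 0 to 12). At least 10 were listed in 9 Old and 2 Young cells, and none in 0 Old and 3 Young cells. Leaving out the 4 most widely listed genes, the medians were 2 in Old and 1.5 in Young. Without those 4, none was listed in 9 Old cells (11.5%) and 18 Young cells (21.95%), and 5 or more in 12 Old cells (15.4%) and 6 Young cells (7.32%). With all members but Sp100 counted, the medians were 5 in Old and 4 in Young. Among cells of 1000000 fragments or more they were then 5 in Old (quartiles 3 and 7) and 5 in Young (4 and 6). Such counts per cell are not given here for other sets of genes.

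The widest set was in Old cell 22, with 13 genes: Irf9, Bst2, Ifitm2, Ifitm3, Oasl2, Rtp4, Gbp3, Gbp7, the rows of Iigp1 and Igtp, Xaf1, Sp100 and Ddx58. Old cells 16, 42 and 48 listed 12 each. Young cell 50 also listed 12: Stat2, Ifitm2, Ifitm3, Rtp4, Usp18, Gbp7, the rows of Iigp1 and Igtp, Xaf1, Parp14, Ddx58 and Eif2ak2. Young cell 11 followed with 10. The top cells of the ages thus shared Ifitm2, Ifitm3, Rtp4, Gbp7, Xaf1, Ddx58 and both joint rows, whereas Isg15 was listed in neither. Old cell 22 had 53325306 estimated fragments and Young cell 50 had 39851964, so neither was shallow.

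**Figure D4:**
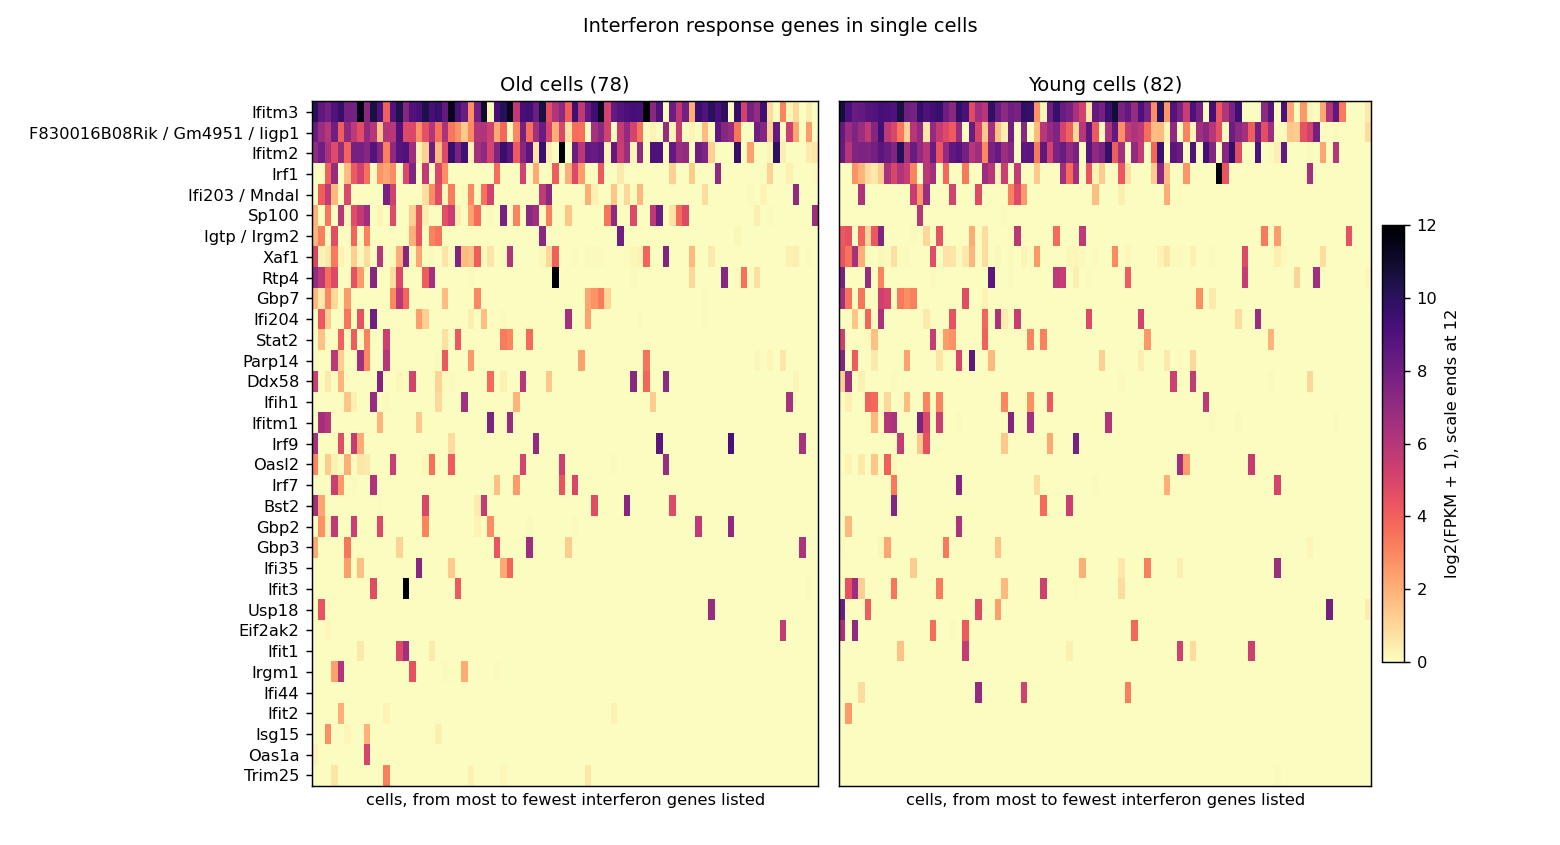
Level of the 33 interferon response genes with a row, as log2(FPKM + 1) in colour (scale ends at 12), in 78 Old cells (left) and 82 Young cells (right). Rows run from the most to the least widely listed gene and columns from the cell listing most of the genes to the one listing fewest. The 3 top rows are filled in most cells of both ages, with gaps. The Sp100 row reaches 1 FPKM in 27 Old cells and 1 Young cell, and single dark cells mark the extreme values of Ifit3, Rtp4, Ifitm2 and Irf1.

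Cells that listed many interferon response genes also listed many genes of any kind. Over cells, the number of members followed the number of named genes with Spearman's rho of 0.68 in 78 Old and 0.70 in 82 Young cells, 2 counts that share the cell's depth. The variance of the number of members over cells was 2.64 times that of independent listing in Old and 2.13 times in Young. Within the 39 Old and 41 Young cells that listed most genes it was 1.96 times in Old and 1.71 times in Young. For the 20 members listed in 5 to 25% of cells, pairs in the same cell were 335 in Old against 247.5 for independent listing, a ratio of 1.35. In Young there were 147 such pairs against 108.9, also a ratio of 1.35. The same ratio over all names in that range was 1.302 in Old and 1.226 in Young. In cells of 1000000 fragments or more it was 1.36 for the members and 1.17 for all names in Old, and 1.24 for the members and 1.11 for all names in Young. The order did not hold in all sets of cells. In shallow cells of Old it was 0.80 for the members and 1.28 for all names, and in the 41 Young cells that listed fewest genes it was 1.15 for the members and 1.17 for all names. Over all 24 measured members it was 1.17 against 1.23 for all measured names in Old, and 1.14 against 1.17 in Young. Whether the members were listed together more or less often than other names was not tested.

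**Figure D5:**
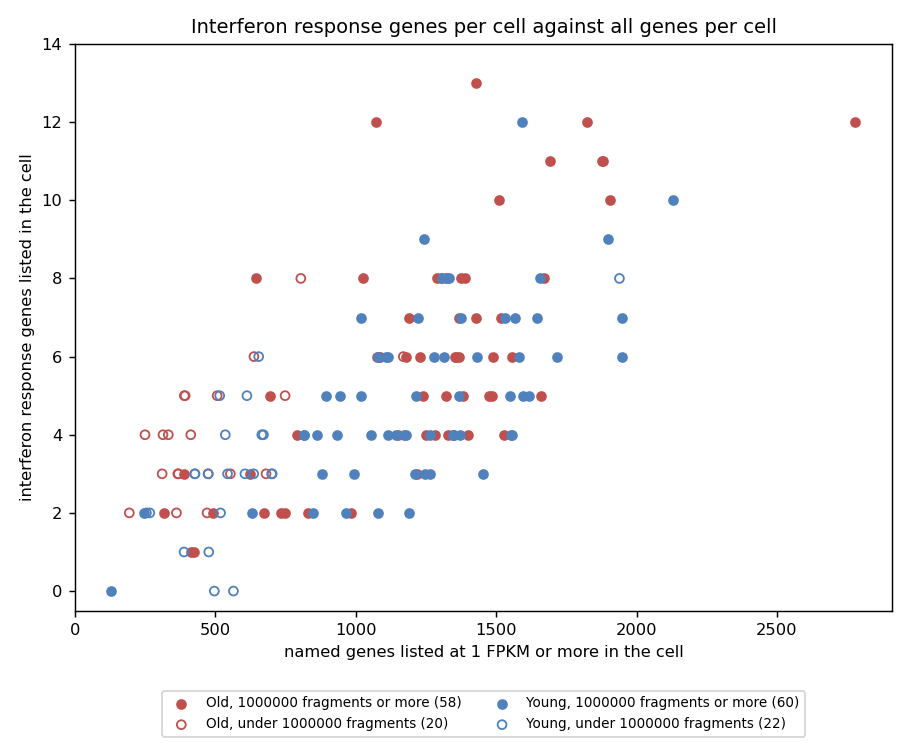
Number of interferon response genes listed in a cell (vertical axis) against the number of named genes listed at 1 FPKM or more (horizontal axis), 1 point per cell. Old cells are red and Young cells blue, open where the cell had under 1000000 estimated fragments. The count of members climbs with the count of genes in both ages, and no shallow cell lists more than 8.

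Among pairs of genes, those most often listed together joined the widely listed genes. Ifitm2 and Ifitm3 were listed together in 52 Old and 54 Young cells, 106 in all against 95.2 if each age listed them independently. Ifitm3 and the row of Iigp1 met in 105 cells against 103.8, and Ifitm2 and that row in 90 against 85.4. Irf1 met Ifitm3 in 53 cells against 47.5, and it met Ifitm2 in 45 against 39.2 and the row of Iigp1 also in 45 against 42.7. The ratios of these pairs ran from 1.01 to 1.15. Over all measured names, most of them listed in fewer cells, the ratio was 1.23 in Old and 1.17 in Young. A pair can meet in no more cells than list its rarer gene, which keeps the ratio low for widely listed genes. The ratios of these pairs can therefore not be compared with those over all names. Whether these pairs met more often than other pairs was not tested.

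Upstream of these genes, the receptor chains were listed in some cells of both ages and the interferons in none. Of a list of 103 further genes of the pathway, 100 had a row, 76 were listed in some cell and 53 were measured. None of the 6 interferon genes with a row was listed, Ifnb1 and Ifng included. Ifngr1, the ligand-binding chain of the type II receptor, was listed in 26 Old cells (33.3%, interval 23.1 to 44.9) and 50 Young cells (60.98%, 49.6 to 71.6), a difference of -27.6 points. Among cells of 1000000 fragments or more, 25 of 58 Old and 41 of 60 Young listed it. The chains of the type I receptor ran the other way, with Ifnar1 in 11 Old and 5 Young cells and Ifnar2 in 23 Old and 18 Young. Ifngr2 was listed in 18 Old and 16 Young cells. Jak1, the kinase both receptors use, was listed in 33 Old and 31 Young cells, whereas Tyk2, the other kinase of the type I receptor, was listed in 1 Old and 1 Young cell. Irf2, which competes with Irf1 for its sites, was listed in 14 Old cells (17.9%) and 26 Young cells (31.7%).

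Of the 53 measured pathway genes, 33 had a higher share in Old, 19 a lower share and 1 an equal one, where 49.2% of all measured names lay higher and 50.7% lower. Their median difference was 2.81 points, beside -0.34 over all measured names. At least 10 points separated the ages towards Old for 3 genes, where 5.09% of all measured names were so placed, and towards Young for 6, where 7.52% were. The 3 towards Old were Psmb8, an immunoproteasome subunit (21 Old and 10 Young cells, 14.7 points), the row of Ifi47, an immunity-related GTPase, and Olfr56 (15 Old and 6 Young, 11.9 points), and Zbp1, a sensor of Z-form nucleic acid (10 Old and 2 Young, 10.4 points). For Psmb8, 1 Old cell held 91.7% of the summed FPKM. The lowest after Ifngr1 were Lgals3bp, a secreted glycoprotein (30 Old and 44 Young cells, -15.2 points), and Samhd1, which degrades the building blocks of viral DNA (21 Old and 34 Young, -14.5 points). The antigen presentation genes were the most widely listed of all: B2m, the light chain of class I molecules, was listed in all 78 Old and all 82 Young cells. The row of H2-D1 was listed in 72 Old and 79 Young cells and that of H2-K1 in 64 Old and 77 Young. Ifi27l1, a relative of the gene without a row, was listed in 32 Old and 35 Young cells.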

How the data were processed

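RNA of 160 single cells was amplified with SMARTer chemistry on a Fluidigm C1 system, per the labels' protocols. The authors deposited FPKM in 1 table of 31199 rows by 160 cells. Cufflinks 2.1.1 and genome build mm9 appear in the submitters' processing notes. How shared reads were divided is not given in the sources used here. The 7751 rows without a gene name were left out.

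Groups were taken from the sample titles. The members and lists were chosen with earlier results of these data known. Shares of cells at 1 FPKM or more, exact 95% intervals, the highest cell's share of summed FPKM (over 50% called dominated) and members per cell were computed with Python 3.11.15, numpy 2.4.6, scipy 1.17.1 and pandas 2.3.3. Mean log2(FPKM + 1) used a pseudocount of 1. With 1 sample per age, a difference of 10 points or more was called, and no p-value was computed. For a share of 0 the limit is the share that 3 cells make. Doublets were removed by microscopy per the labels' protocols, so no doublet caller was run.

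Fragments per cell were estimated from the FPKM that 1 fragment adds, an estimate added after the data were seen. This step was read in 2 ways. The first took the most common FPKM times transcript length over 2847 single-transcript genes. The other took the most common ratio of FPKM to that in each of 5 reference cells. The smaller step was used where at least 3 single-transcript genes lay on it, and the larger otherwise. The estimate from transcript lengths alone lay within 0.25 of the one used, on the log2 scale, in 157 of 160 cells. It is not an independent check, since it is 1 of the 2 readings and sets the scale of the other. In Young cell 81 the estimate used was 95629300 fragments, against 256261 by length alone. In Old cell 18 these were 55839071 and 40411, and in Old cell 23 63171692 and 57309. These cells were counted as not shallow. The estimate is approximate, is not the authors' depth, and served only to separate shallow cells. The scripts were tested on simulated data with known answers. Genes were named by rule: the 12 most widely listed members, the 5 with the highest and 5 with the lowest difference, and for the pathway the 6 most widely listed and the 3 highest and 3 lowest differences. The other genes named with counts complete the roles or were chosen after their values were seen. Promoters came from the RefSeq table by symbol. Other thresholds, cell filters and scalings were tried as alternatives. The values of 1 pathway gene are not reported here.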

Additional observations from a re-analysis of the deposited data

How the results depend on the processing

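Under 14 alternative settings, 96 of 117 recomputed summary values and 120 of 149 recomputed share differences of named members stayed close to the reported value: within 1.5 times for counts and variance ratios, and within the reported interval for medians and for both shares of a gene. The called difference, that of Sp100, never changed sign. The Sp100 difference stayed towards Old in 8 of 8 settings, at 24.4 to 46.3 points. Ifitm3 was higher in Old in 8 of 9 settings (-2.01 to 8.94 points) and Rtp4 in 8 of 9 (-4.61 to 8.26). Ifi203 with Mndal (8 of 8) and Xaf1, Gbp2, Ddx58 and Ifitm1 (9 of 9 each) kept their direction. The other named members turned in some settings: Irf1 kept its direction in 8 of 9, Ifit3, Ifih1 and Gbp7 in 7 of 9, Ifitm2 and Ifi204 in 6 of 9, the rows of Iigp1 and Igtp in 6 of 8 and Stat2 in 5 of 9. Counting any FPKM above 0, 11 of 29 measured genes were lower in Old, 3 were at least 10 points higher, and the medians per cell were 8 in Old and 7 in Young. At 10 FPKM, 11 of 17 were higher in Old and the Young median was 3. Leaving out cells under 50% of the median number of genes gave 4 genes at least 10 points higher. Keeping the 78 cells within the quartiles gave 5 at least 10 points higher, 2 at least 10 points lower and a Young variance ratio of 1.35. Rescaling cells to the same summed FPKM gave 3 at least 10 points higher and 3 dominated genes (Ifit3, Rtp4 and Irf1). For these settings and for any FPKM above 0, the share of all measured names past 10 points was not computed. With fewer cells kept, counting error is also larger. These counts are therefore not a result about the members. Without joint rows the Young median was 3. With no filter 11 were lower and 11 dominated, and with a filter at a mean of 1 FPKM 11 were lower. The median of log2 ratios of means was 0.79 and of trimmed means 0.43, beside 0.10 for the mean of logs. Settings added after the data were seen gave 2 at least 10 points higher and 2 dominated genes without cells under 1000000 fragments, and 0 at least 10 points higher without Sp100. The cause of each shift was not tested, except that leaving out Sp100 removes the 1 gene past 10 points. No paired analysis was possible because the cell numbers only name cells, each age is 1 sample and no test was made. For the same reason no replicate could be left out. Depth limits the rare genes: in a shallow cell 1 fragment per kilobase exceeds 1 FPKM, so absence and levels near that value rest on few fragments there. How many fragments lie behind the extreme values cannot be read from them.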
